A study of Gallus gallus with 12 samples.

Results

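HTC is a chicken macrophage cell line, and Eimeria acervulina is an intracellular protozoan parasite of the chicken intestine that causes coccidiosis. The data described here are the 4 arrays, of 12 in the series, that compare HTC cells before and after stimulation with E. acervulina. They were chosen by the parasite named in the sample titles. The cells were unstimulated or had been stimulated for 4, 18 or 48 h, and polyadenylated RNA of each time was labelled with both Alexa555 and Alexa647. The arrays compared unstimulated cells with 4 h, 4 h with 18 h, 18 h with 48 h, and 48 h with unstimulated cells, so they form a closed loop. There was 1 RNA sample per time, so no test of a time point against another was possible and no p-value is given. No unstimulated culture of matching age is named in the labels, so an effect of the parasite and one of longer culture cannot be told apart. They give neither the dose nor the stage of the parasite, and fewer cells of a kind and less RNA per cell cannot be told apart in bulk RNA.

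Macrophages engulf and digest microbes, kill them with oxidants and lysosomal enzymes, and call in other leukocytes by secreting chemokines and cytokines. Their early response to a microbe is known to include secreted mediators, folding factors of the endoplasmic reticulum and a shift in energy metabolism, and much of it is held in check by feedback inhibitors. How strong each of these programmes was at 4, 18 and 48 h, and how far they had come back to the unstimulated level by 48 h, are the questions that the loop can describe.

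All values below are log2 changes relative to the unstimulated cells unless another time is named. The deposited values were signed log ratios. Neither the log base, taken as 2, nor the dye in the numerator is given in the sources used here. The ratio was read as Alexa555 over Alexa647, which is a likely direction only. An earlier analysis of these data had planned the opposite reading and switched after the values were seen, because chemokine genes then took the signs remembered from the study. That memory could not be checked, so the chemokine values below are no evidence of direction. Each title also names the Alexa555 sample first. With the other dye as numerator all changes take the opposite sign while their sizes stay. The 4 arrays were taken to run the same way round, which their values do not settle.

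A closed loop measures each change along 2 routes that share no array. SPP1 shows how this works. It encodes osteopontin, a secreted phosphoprotein of activated macrophages, and its mean log ratio over its spots was -2.29 for unstimulated over 4 h, 1.46 for 4 h over 18 h, 1.11 for 18 h over 48 h and -0.21 for 48 h over unstimulated. The array that held both samples gave a change of 2.29 at 4 h, and the 3 other arrays gave 2.36. The arrays sum to 0.07, where a loop without error would sum to 0. That sum, here called the closure, is the error measure of each gene, and a constant dye effect of the gene is part of it. The least squares change, which cancels a constant dye effect, was 2.31 with an array-error SE of 0.20. Over all genes the error of 1 array was 0.23 as a robust SD and 0.35 as a root mean square, and 9.91% of genes had a closure beyond 1 in either direction. Every SE below is this array error, moderated over all features, and leaves out the spread between cultures.

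Of 2253 named genes, 2251 had a value on all 4 arrays. A gene was called where its change was at least 2-fold and both routes had the same sign. At 4 h 94 genes were called, which is 4.18% of the 2251, with 52 higher (2.31%) and 42 lower (1.87%). At 18 h 50 genes were called (2.22%), 31 higher (1.38%) and 19 lower (0.844%). At 48 h 15 genes were called (0.666%), 8 higher (0.355%) and 7 lower (0.311%). With arrays centred on their medians the split at 48 h was 9 higher and 4 lower. Without the array of unstimulated with 4 h the 4 h count was 306, and leaving out any other array gave 114. The 18 h count was 168 without the unstimulated with 4 h or the 4 h with 18 h array and 87 without either of the others. The 48 h count was 175 without the 48 h with unstimulated array and 41 without any of the others. Leaving out an array opens the loop and leaves 1 route, so the route condition then has no effect. With all 4 arrays and no route condition the counts were 98 at 4 h, 52 at 18 h and 22 at 48 h. The cause of the higher counts without an array was not tested.

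Spots added a second view of error. Each clone was printed 3 times, and the median SD between spots of a gene lay between 0.15 and 0.17 on the 4 arrays. The spots of a gene were all rows of its symbol. For genes with more than 3 rows the spot SD therefore also holds differences between clones, and spots of different clones can meet a minimum number. A called change was counted as well measured where every array had at least 2 spots, no array had a spot SD above 0.5 and the change was at least as large as the closure, a rule chosen after the values were seen. At 4 h 69 of the 94 calls met it, 39 higher and 30 lower. At 18 h 27 of 50 met it, 15 higher and 12 lower, and at 48 h 5 of 15 met it, 4 higher and 1 lower.

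**Figure D1:**
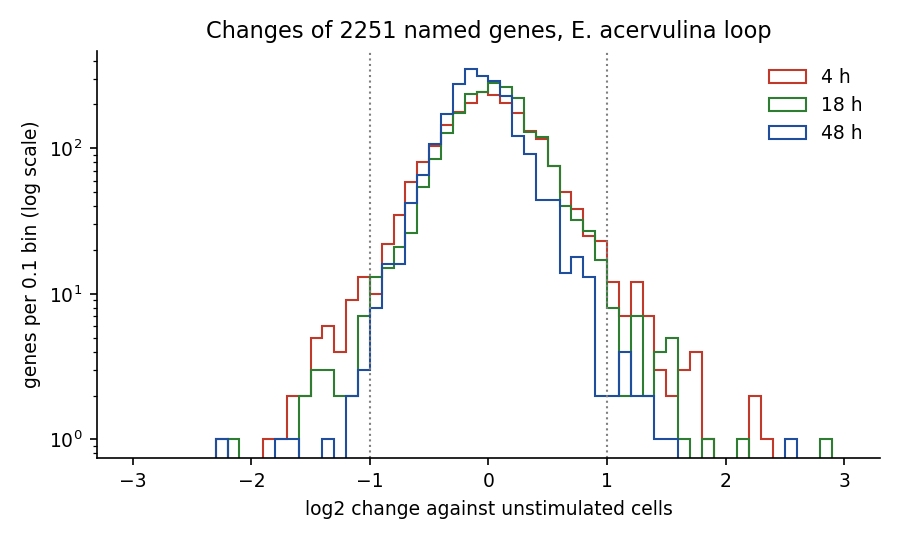
Number of genes per bin of 0.1 (log scale) against the log2 change from unstimulated cells at 4, 18 and 48 h, for 2251 genes, with dotted lines at 2-fold. The 48 h outline is the narrowest, with 15 called genes against 94 at 4 h.

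The spread of the changes was widest at 4 h and narrowest at 48 h with all 4 arrays, but this order rests on the 48 h with unstimulated array. The robust SD of the changes over all 2251 genes was 0.39 at 4 h, 0.33 at 18 h and 0.27 at 48 h. Array error, read from closures that include the dye effect of each gene, came to 0.20 at 4 and 48 h and 0.23 at 18 h. This error is pooled as a single size for all 4 arrays, so it is equal at 4 and 48 h by construction. Whether the arrays differed in error was not tested. Of the rows, 17.1% had no value on the unstimulated with 4 h array and 8.66% on the 48 h with unstimulated array. As plain SDs the spreads were 0.465, 0.399 and 0.327 at 4, 18 and 48 h. The root mean square array errors beside them were 0.302, 0.348 and 0.302, so the 48 h spread was little above its error. The share of genes within 0.5 of the unstimulated level was 77.1% at 4 h, 83.5% at 18 h and 88.4% at 48 h. Along the single array that held both samples the robust SD was 0.41 at 4 h and 0.29 at 48 h, and along the 3 other arrays 0.65 and 0.43, so routes of equal length gave the wider spread at 4 h. Without the unstimulated with 4 h array the 4 h value is that 0.65. Without the 48 h with unstimulated array the order turned, with 0.41 at 4 h, 0.37 at 18 h and 0.43 at 48 h, and the counts were then 114, 87 and 175. That setting leaves 48 h on a route of 3 arrays and 4 h on 1, and the cause of the turn was not tested.

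Genes that were high or low at 4 h had mostly come back to near the unstimulated level by 48 h. The 52 genes called higher had a median change of 1.25 at 4 h, 0.77 at 18 h and 0.16 at 48 h. At 48 h 31 of them lay within 0.5 of the unstimulated level, 17 remained above that and 4 lay below it on the other side. The 42 genes called lower had medians of -1.22, -0.71 and -0.18, and 31 of them lay within 0.5 at 48 h, 8 beyond it on the lower side and 3 on the higher side. The median fraction of the 4 h change kept at 48 h was 0.13 for higher and 0.14 for lower genes. Without the 48 h with unstimulated array the fractions were 0.0039 for higher and 0.52 for lower genes. Without the unstimulated with 4 h array they were 0.25 and 0.29, and without either of the others 0.015 and 0.032. Centring moved them to 0.20 and 0.080 and scaling to 0.15 and 0.053. Genes picked for a large value at 4 h tend to be smaller at any other time, and the 3 changes share the unstimulated RNA. The mirror choice is therefore given too. The 8 genes called higher at 48 h had medians of 1.14 at 4 h, 1.10 at 18 h and 1.17 at 48 h, and the 7 called lower had -0.88, -0.90 and -1.17. Only 4 of these 8 and 1 of these 7 met the rule on spots and closure, so the mirror medians rest largely on poorly measured genes.

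**Figure D2:**
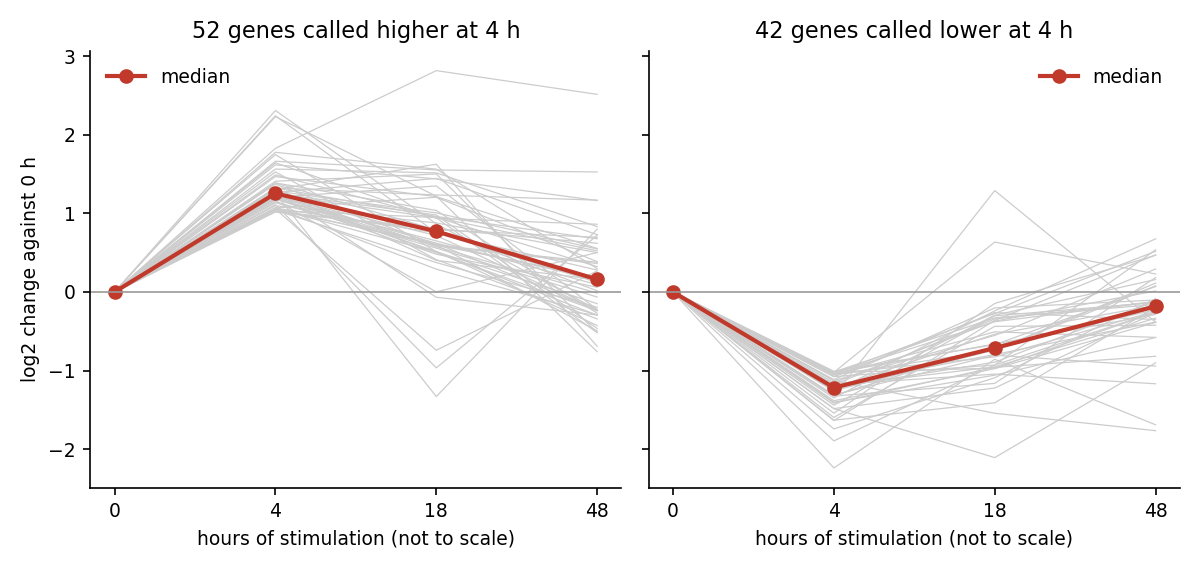
Log2 change from unstimulated cells at 0, 4, 18 and 48 h for the 52 genes called higher and the 42 called lower at 4 h, with grey lines for genes and a red line for the median. The median of higher genes went from 1.25 at 4 h to 0.16 at 48 h and that of lower genes from -1.22 to -0.18.

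No array held 4 h and 48 h RNA together. Their comparison averaged a route through the unstimulated RNA and a route through 18 h, and it gave 103 called genes (4.58%), 38 higher (1.69%) and 65 lower (2.89%) at 48 h. With arrays centred on their medians the split was 52 higher and 55 lower, since the median gene stood at -0.08 in this comparison. The count was 210 without the unstimulated with 4 h or the 48 h with unstimulated array and 182 without either of the others. RNASE6, a secreted ribonuclease of leukocytes, was lowest at 48 h relative to 4 h, at -2.99, then SPP1 at -2.54 and the complement gene C1QC at -2.12. CLIC4 at -2.37 rested on 1 spot on an array and had a closure of -3.92. The chemokine gene LOC417536 stood at -2.00 and the oncostatin M receptor gene OSMR at -1.93. On the higher side were SFXN1, a mitochondrial serine transporter gene, at 2.11, NDRG1, a stress and hypoxia responsive gene, at 2.01, HPGDS, a prostaglandin D synthase gene, at 1.94, ENO1 at 1.64 and ARRDC3 at 1.61. TPD52 at 1.66 had spots that disagreed by an SD of 0.75.

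SPP1, C1QC and RNASE6, genes of secreted proteins, led the genes that were higher at 4 h. C1QC, a chain of the complement recognition protein C1q, had log ratios of -2.17, 1.56, 0.71 and 0.20 on the 4 arrays in the order given for SPP1. It stood at 2.24 (SE 0.21) at 4 h, 0.75 at 18 h and 0.12 at 48 h. The 2 routes gave 2.17 and 2.47 at 4 h, so the call does not rest on 1 array. The RNASE6 log ratios were -2.19, 1.05, 2.02 and -0.72, so the largest lay between unstimulated and 4 h. RNASE6 stood at 2.23 (SE 0.21) at 4 h, 1.22 at 18 h and -0.76 at 48 h, with routes of 2.19 and 2.35 at 4 h. SPP1 went from 2.31 at 4 h to 0.87 at 18 h and -0.23 at 48 h. All 3 genes were thus near or below the unstimulated level at 48 h. C1QA, another C1q chain, stood at 1.07, 0.29 and -0.29, though its spots disagreed by an SD of up to 0.77, and C1QB at 0.20, 0.09 and 0.45.

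FABP4, which carries fatty acids inside macrophages and fat cells, had another profile and stayed high. Its log ratios on the 4 arrays were -1.94, -1.10, 0.19 and 2.41, high against unstimulated cells on both arrays that held them. Its changes were 1.83 (SE 0.22) at 4 h, 2.82 (SE 0.26) at 18 h and 2.51 (SE 0.22) at 48 h, and the routes gave 1.94 and 1.50, 2.60 and 3.03, and 2.41 and 2.84. It was the highest of the 2251 genes at 18 and 48 h.

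CSF1R, the receptor that keeps macrophages alive and differentiated, stood at 1.05 at 4 h, 0.62 at 18 h and -0.23 at 48 h. Of 24 measured macrophage marker genes 5 were called higher at 4 h, where 2.31% of all genes were, namely SPP1, C1QC, FABP4, C1QA and CSF1R. ANXA2, a membrane-binding annexin gene, and LYZ, which encodes lysozyme, were called lower, where 1.87% of all genes were, ANXA2 at -1.60, -0.44 and -0.42 and LYZ at -1.04, -0.38 and -0.12, with 1 spot for LYZ on an array. The list median was 0.24 at 4 h, 0.29 at 18 h and -0.12 at 48 h, against 0.00, 0.04 and -0.08 over all genes. Ratios hold no levels, so these arrays cannot show that the macrophage markers are present or that those of other cells are absent. Of 15 T cell markers 3 were measured, of which CD3D stood at 1.24, 0.94 and -0.52, TARP at -0.56, -1.42 and -0.36 and CD28 at 0.24, 0.51 and 0.32. Of the B cell, heterophil, erythroid and thrombocyte, and fibroblast and epithelial lists 1, 1, 2 and 1 genes were measured. None of them was called at 4, 18 or 48 h, where 4.18%, 2.22% and 0.666% of all genes were.

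Other genes high at 4 h included HSP90B1, the endoplasmic reticulum member of the HSP90 chaperones, at 1.75 (SE 0.21), 0.51 and -0.15. KLC1, a light chain of the motor protein kinesin, stood at 1.64, 0.94 and 0.86. TXNDC15, a thioredoxin domain gene, stood at 1.53, 0.41 and -0.34 and the drug and prostanoid exporter gene ABCC4 at 1.49, 0.95 and 0.52. Not all leading genes were well measured. HACD2, PCGF5, LOC770026 and CMKLR1 ranked among the 12 highest, at 1.78, 1.66, 1.62 and 1.56, but their spots disagreed by SDs of up to 1.18, 2.32, 2.20 and 1.08.

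The glycolytic enzyme gene ENO1 had log ratios of 1.74, -1.12, -0.83 and -0.41 on the 4 arrays. It was the lowest well-measured gene at 4 h, at -1.90 (SE 0.24), then -0.93 at 18 h and -0.25 at 48 h, and its routes at 4 h gave -1.74 and -2.36. SFXN1 stood at -1.64 (SE 0.20), -0.36 and 0.47, with both routes at -1.64 at 4 h. NDRG1 stood at -1.54, -0.15 and 0.47. SAT1, which acetylates polyamines for export, stood at -1.48, -1.22 and -0.26, and the translation start factor gene EIF1 at -1.40, -1.06 and -0.58. These profiles differ in pace, since SFXN1 and NDRG1 were within 0.5 of the unstimulated level at 18 h and SAT1 and EIF1 were not. TNIP3, an inhibitor of NF-kB signalling, had the lowest value of all at 4 h, -2.24, with -0.86 at 18 h and -1.69 at 48 h, but its spots disagreed by an SD of 2.06. TPD52 at -1.74, the signalling regulator gene RGS1 at -1.63, COX4I1 at -1.49, the nitric oxide synthase gene NOS2 at -1.44 and the membrane linker gene MSN at -1.41 also had a spot SD above 0.5. COX4I1 had 1 spot on 3 arrays and an SD of 2.83 between its 2 spots on the other.

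**Figure D3:**
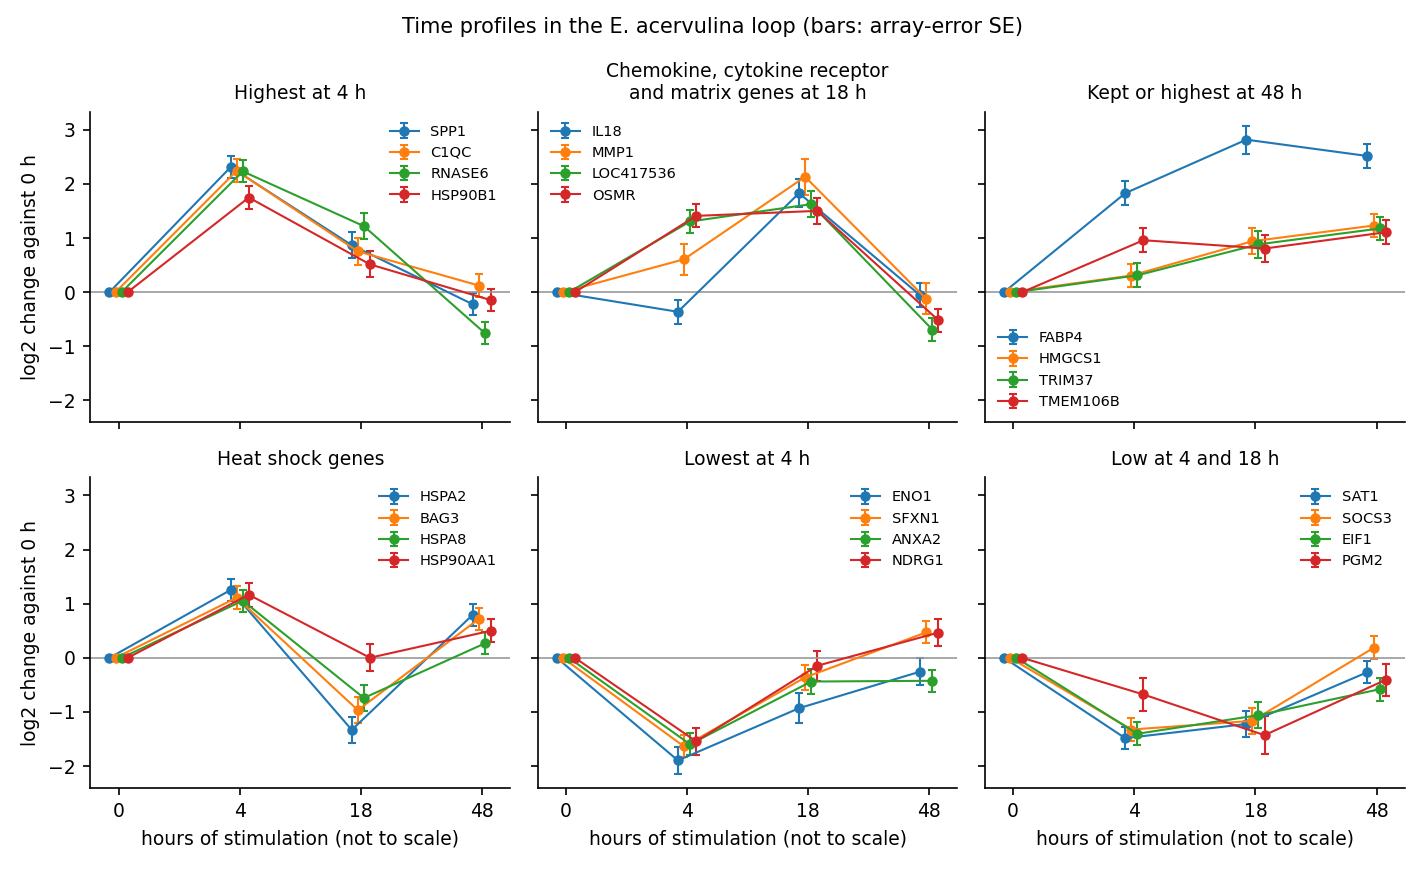
Log2 change from unstimulated cells against hours of stimulation for 24 genes in 6 panels, with bars for the array-error SE. SPP1, C1QC and RNASE6 peak at 4 h, IL18 and MMP1 at 18 h, HSPA2 goes from 1.25 to -1.33 to 0.80, and FABP4 stays at 2.51 at 48 h.

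FABP4 at 2.82, MMP1 at 2.13 and IL18 at 1.83 were the highest genes at 18 h. MMP1, a collagenase gene, had log ratios of -0.38, -1.30, 2.48 and 0.10 on the 4 arrays. It stood at 0.61 at 4 h, 2.13 (SE 0.33) at 18 h and -0.12 at 48 h, with routes of 2.58 and 1.69 at 18 h. IL18, a cytokine that drives interferon gamma production, had log ratios of 0.46, -2.09, 1.99 and 0.04 and stood at -0.36, 1.83 (SE 0.26) and -0.06, with routes of 2.03 and 1.63 at 18 h. Both genes were thus high at 18 h and within 0.5 of the unstimulated level at 48 h. OSMR, a receptor subunit for oncostatin M, stood at 1.41, 1.50 and -0.52, and RBPJ, the transcription factor of the Notch pathway, at 1.26, 1.45 and 0.73. GCLM, the regulatory subunit of the enzyme that starts glutathione synthesis, stood at 1.20, 1.35 and -0.22. CMBL, a hydrolase gene, changed side, from -1.32 at 4 h to 1.29 at 18 h and -0.38 at 48 h, with routes of 1.35 and 1.23 at 18 h.

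Chemokine genes had their highest list median at 18 h. From 4 to 18 h all 12 measured genes had a positive difference, but none was called, where 1.29% of all genes were. From 18 to 48 h all 12 had a negative one, with 3 called lower, where 1.2% of all genes were. The 2 steps share the 18 h RNA, so their opposite signs are not independent. The list medians of these differences were 0.48 and -0.73, against 0.03 and -0.11 over all genes. The routes gave list medians of 0.39 and 0.55 from 4 to 18 h and -0.82 and -0.30 from 18 to 48 h. CCL5, at -1.19 from 18 to 48 h, had routes of -1.61 and 0.04 and a closure of 1.65. XCL1, CXCL13L2, CCL4 and CCL1 differed by less than their array error at one or both steps, with values from 0.00 to 0.17 and from -0.22 to -0.02. Against unstimulated cells 1 of 12 was called higher at 4 h, where 2.31% of all genes were, and 4 at 18 h, where 1.38% were. None was called higher at 48 h, where 0.355% were. None was called lower at 4, 18 or 48 h, where 1.87%, 0.844% and 0.311% were. The list medians were 0.21, 0.82 and -0.20. The 2 routes gave list medians of 0.78 and 0.56 at 18 h, and with rows complete on all 4 arrays it was 0.45.

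LOC417536, a chemokine gene with the synonym CCAH221 in RefSeq, had log ratios of -1.27, -0.29, 2.35 and -0.66 on the 4 arrays. It stood at 1.31 at 4 h, 1.63 (SE 0.24) at 18 h and -0.69 at 48 h. LOC395551, with the synonym MIP-1beta, stood at 0.79 at 4 h and -0.79 at 48 h, and its routes gave 1.87 and 1.10 at 18 h, with a spot SD of up to 1.27. CCL20, which attracts lymphocytes and dendritic cells, stood at 0.85, 1.38 and 0.62, and K123 at 0.26, 1.21 and 0.52. The spots of K123 disagreed by an SD of up to 0.95, and its routes at 18 h gave 1.65 and 0.78. IL8L1, a chicken relative of interleukin 8, stood at 0.20, 0.82 and -0.83, with routes of -0.81 and -0.90 at 48 h. It and the 2 LOC genes were called lower at 48 h than at 18 h, where 27 genes (1.2%) were called lower in all, LOC417536 by -2.32 and LOC395551 by -2.28. The remaining chemokine genes, CCL26, CCL5, CXCL13L2, CCL4, CCL1, CKLF and XCL1, lay between -0.28 and 0.97 at 18 h.

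The classical inflammatory cytokine genes IL1B and IL6 stayed near the unstimulated level, though ratios hold no levels and cannot show whether they were expressed. IL1B, which encodes interleukin 1 beta, stood at -0.16 at 4 h, 0.10 at 18 h and -0.32 at 48 h, and IL6 at -0.14, -0.06 and -0.17, both within 0.5 at every time. LITAF, a factor of lipopolysaccharide-induced TNF expression, stood at -0.53, -0.16 and -0.05, IL16 at -0.31, -0.38 and -0.65 and TGFB3 at 0.96, 0.67 and 0.08. IL15 stood at -0.98 at 48 h with 1 spot on an array. TNFSF13B and PDGFA lay between -0.11 and 0.88 at all 3 times. Of 10 cytokine and growth factor genes SPP1 was called at 4 h and IL18 at 18 h, both higher, where 2.31% and 1.38% of all genes were. Of 15 cytokine and chemokine receptor genes OSMR and CSF1R were called higher at 4 h, where 2.31% of all genes were. OSMR was called higher at 18 h, where 1.38% were, and none was called at 48 h, where 0.666% were.

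On the lower side at 18 h PGM2, a phosphoglucomutase and phosphopentomutase gene, stood at -0.68 at 4 h, -1.43 (SE 0.35) at 18 h and -0.41 at 48 h. The Hippo pathway kinase gene STK4 stood at -0.70, -1.36 and -0.56 and the ubiquitin ligase gene ARIH1 at -0.42, -1.13 and -0.24. SOCS3, a feedback inhibitor of cytokine receptors, stood at -1.32, -1.16 and 0.18. GDAP2, PLCXD1 and EPB41L3, at -1.54, -1.52 and -1.38 at 18 h, had a spot SD above 2, and COX4I1 stood at -2.11 on those few spots. SLA, at 1.57 at 18 h, had 1 spot on an array. Between 4 and 18 h 29 genes were called (1.29%), 15 higher (0.666%) and 14 lower (0.622%), and without the 4 h with 18 h array the count was 205. CMBL was highest in that comparison at 2.61, then IL18 at 2.19 and the death receptor gene FAS at 1.66.

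HSPA2, BAG3 and HSPA8, genes of cytosolic heat shock proteins and a partner of them, had the lowest values at 18 h relative to 4 h and were called higher again from 18 to 48 h. Both differences use the same 18 h RNA, so they are not independent. HSPA2, which carries the synonym HSP70 in RefSeq and helps proteins fold, stood at 1.25 (SE 0.20) at 4 h, -1.33 (SE 0.23) at 18 h and 0.80 (SE 0.20) at 48 h. Its mean log ratios on the 4 arrays were -1.26, 2.58, -2.13 and 0.80, with a closure of -0.01 and a spot SD of at most 0.15 over at least 4 spots. BAG3, a partner of HSP70 proteins, stood at 1.11, -0.97 and 0.72, and HSPA8, the constitutive HSC70 gene, at 1.06, -0.74 and 0.27. HSP90AA1, the inducible cytosolic HSP90, stood at 1.17, 0.00 and 0.50. These 4 genes share the order 4 h, then 48 h, then 18 h. At 18 h HSPA2 was called lower against unstimulated cells, while BAG3 and HSPA8 did not reach 2-fold.

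Of 17 heat shock and cytosolic folding genes, these 4 and CCT4, a subunit of the CCT chaperonin, were called higher at 4 h, where 2.31% of all genes were. CCT4 stood at 1.15, 0.56 and -0.06. From 4 to 18 h HSPA2, BAG3, HSPA8 and HSP90AA1 were called lower, where 0.622% of all genes were, at -2.59, -2.08, -1.80 and -1.16. From 18 to 48 h HSPA2, BAG3 and HSPA8 were called higher, where 0.711% of all genes were, HSPA2 at 2.13 and BAG3 at 1.69. The rest of the list did not share this, since 11 of the 17 had a negative difference from 18 to 48 h, with a median of -0.20 against -0.11 over all genes. The list medians were 0.44, 0.00 and 0.03 at 4, 18 and 48 h.

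In the endoplasmic reticulum folding list 4 of 19 genes were called higher at 4 h, where 2.31% of all genes were, and none lower, with a median of 0.42 at 4 h, 0.11 at 18 h and -0.14 at 48 h. The routes gave 0.37 and 0.85 at 4 h, and 0.28 and -0.12 at 18 h. They were HSP90B1, TXNDC15, SEC61A1, the channel subunit of the protein translocon, at 1.26, 0.58 and -0.01, and UGGT1, the glucosyltransferase that checks folding, at 1.32, 1.23 and 1.17 with a spot SD of up to 1.03. HSPA5, the main chaperone of this compartment, stood at 0.69, -0.12 and 0.10, and XBP1, which switches on genes of that compartment under folding stress, at 0.05, 0.35 and 0.58. At 48 h ERP29 stood at 1.33, but its closure was 4.59 and its routes differed in sign.

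Genes of the lysosome were mixed. Of 27 measured members 4 were called higher at 4 h and 1 lower, where 2.31% and 1.87% of all genes were. The protease gene CTSD stood at 1.39, 0.79 and 0.01 with 1 spot on an array, PSAP, which encodes the saposins that help degrade sphingolipids, at 1.22, 0.72 and -0.24, the proton pump gene ATP6V0D2 at 1.07, 1.20 and 0.39 with a spot SD of up to 1.70, and the protease gene CTSC at 1.04, 0.37 and -0.20. CTSV, another protease gene, was called lower, at -1.35, -0.30 and 0.16. The list medians were 0.12, 0.05 and -0.15, against 0.00, 0.04 and -0.08 over all genes. At 4 h the routes gave 0.08 and 0.35, the second being the value without the unstimulated with 4 h array.

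Of 22 measured genes of glycolysis, glycogen and hypoxia 20 had a negative change at 4 h. ENO1, NDRG1, PGAM1 and GBE1 were the 4 called lower, where 1.87% of all genes were, and none was called higher. At 18 h PGM2, at -1.43, was the 1 called lower, where 0.844% of all genes were. At 48 h none was called, where 0.666% were. PGAM1, a glycolytic mutase gene, stood at -1.38, -0.98 and -0.39 and GBE1, the glycogen branching enzyme gene, at -1.18, -0.80 and -0.38. GAPDH stood at -0.80, -0.33 and -0.33. The list median was -0.44 at 4 h, with -0.42 and -0.34 along the 2 routes, -0.11 at 18 h and -0.15 at 48 h. HIF1A, the oxygen-regulated transcription factor subunit, took another course at -0.40, 0.96 and 0.82, with a spot SD of up to 0.56. P4HA1, a collagen prolyl hydroxylase gene, went from -0.93 and -0.91 to 0.58.

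Cytosolic ribosomal protein genes had negative changes at 4 and 18 h and a median near 0 at 48 h. Of 54 cytosolic ribosomal protein genes 51 had a negative change at 4 h and 50 at 18 h, but 23 at 48 h. Their medians were -0.58, -0.45 and 0.01, against 0.00, 0.04 and -0.08 over all genes. The 2 routes gave list medians of -0.49 and -0.75 at 4 h. At 18 h they gave -0.52 and -0.36, and at 48 h -0.03 and 0.18, so they differed in sign at 48 h only. RPL3 at -1.22, -0.89 and -0.12 and RPL12 at -1.06, -0.74 and 0.08 were the 2 called, both lower at 4 h, where 1.87% of all genes were. From 18 to 48 h 49 of the 54 had a positive difference, with a median of 0.51. The translation factor list did not follow the ribosomal one in its median, which was -0.10, 0.02 and 0.04, with 7 of 17 genes positive at 4 h. Of the 17, 4 were called lower at 4 h, where 1.87% of all genes were, and none higher, EIF1, EIF2S3 at -1.22, EEF1B2 at -1.13 and EIF3H at -1.04. At 48 h EIF1, EIF2S3, EEF1B2 and EIF3H stood at -0.58, -0.17, 0.29 and 0.52, and EIF3H rested on 1 spot on at least 1 array. For near-identical ribosomal genes the probes may also have bound transcripts of other members, which was not tested.

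Of 20 oxidative and nitrosative defence genes HMOX1, which degrades heme, and GCLM were called higher at 4 h, where 2.31% of all genes were, and NOS2 lower, where 1.87% were. HMOX1 stood at 1.28, -0.07 and -0.29. NCF1C, a subunit of the phagocyte oxidase, was called higher at 18 h, at 1.02, together with GCLM, where 1.38% of all genes were. At 48 h the change was negative in 17 of the 20, and the median was -0.26 against -0.08 over all genes. None was called at 48 h, where 0.666% of all genes were. From 18 to 48 h the difference was negative in 16 of the 20. GCLM, the glutathione transferase gene GSTA3 and the peroxiredoxin gene PRDX1 were called lower in that comparison, at -1.57, -1.09 and -1.07, where 1.2% of all genes were. TXNRD1, which reduces thioredoxin, went from 0.85 at 4 h to -0.37 at 48 h.

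Among lipid and eicosanoid genes 3 of 17 were called higher at 4 h, where 2.31% of all genes were, FABP4, HACD2 and LTA4H, of which HACD2 failed the rule on spots and closure. LTA4H, which makes leukotriene B4, stood at 1.25, 0.98 and -0.46, with a closure of -0.02. HMGCS1, an early enzyme of cholesterol synthesis, took the opposite course, at 0.31, 0.94 and 1.23 (SE 0.21), with routes of 1.19 and 1.36 at 48 h. PLIN2, which coats lipid droplets, stood at 0.13, 0.92 and 0.32, and HPGDS at -1.26, -0.24 and 0.68. The list median was 0.13 at 4 h, 0.62 at 18 h and 0.27 at 48 h, and the 2 routes gave 0.74 and 0.30 at 18 h, then 0.17 and -0.22 at 48 h.

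**Figure D4:**
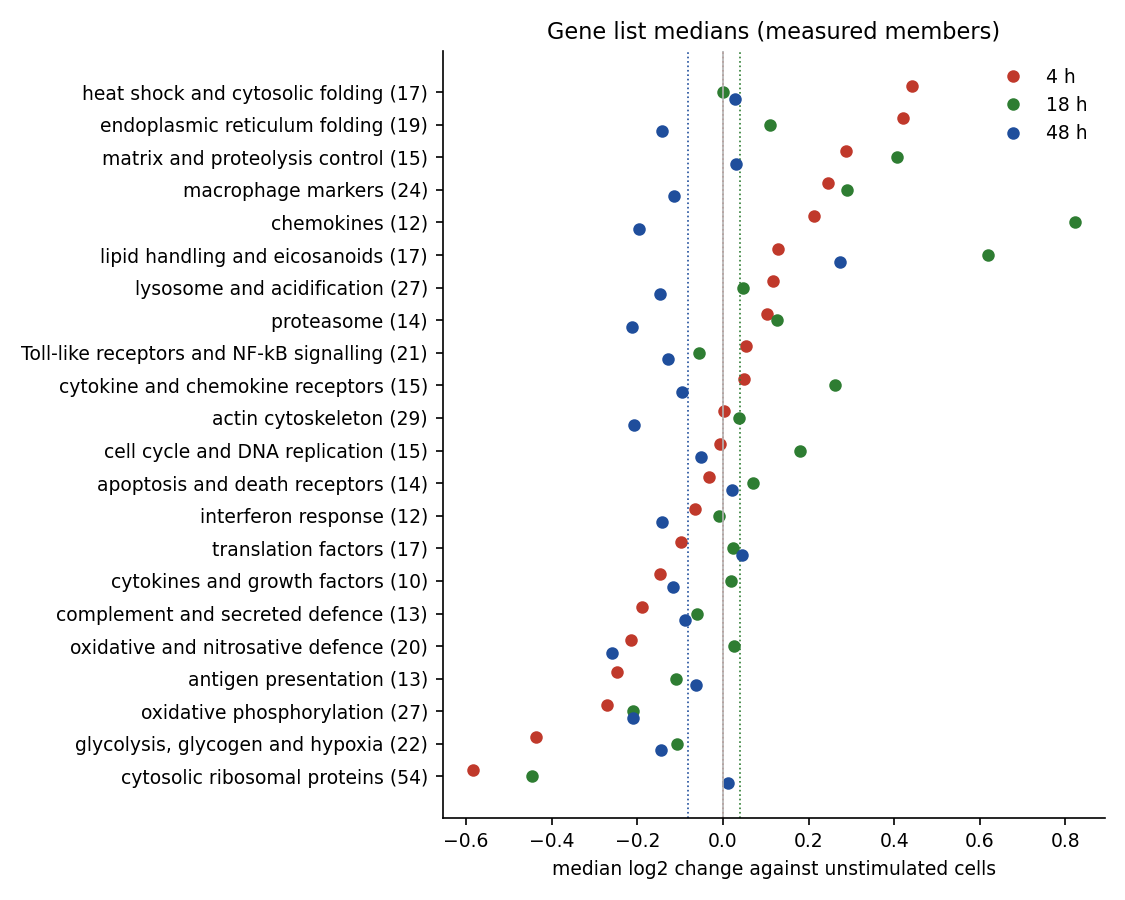
Median log2 change from unstimulated cells for the 22 gene lists with at least 10 measured members, at 4, 18 and 48 h, with dotted lines at the medians over all genes. Cytosolic ribosomal proteins go from -0.58 at 4 h to 0.01 at 48 h, and chemokines stand out at 18 h with 0.82.

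The genes called at 48 h were few, and FABP4 and HMGCS1 led those that were well measured. TRIM37, a ubiquitin ligase gene, stood at 0.31, 0.88 and 1.18, and TMEM106B, a lysosomal membrane gene, at 0.96, 0.81 and 1.11. TNFRSF10B, a death receptor gene, stood at -1.18 (SE 0.32), -1.05 and -1.17, so it was called lower at all 3 times. However, its closure of -1.09 makes the routes at 48 h differ, at -1.44 and -0.35. At 18 h its change was smaller in size than that closure, so the 18 h call failed the rule on spots and closure. FABP4, TRIM37, HMGCS1, TMEM106B and TNFRSF10B were the 5 well-measured calls at 48 h. The other 10 were PCGF5, UGGT1, LOC770026 and DLG1, higher by 1.53, 1.17, 1.16 and 1.01, and GDAP2, TNIP3, MMP27, NDEL1, GMFB and SLC35B2, at -1.77, -1.69, -1.39, -1.08, -1.05 and -1.02. All 10 had a spot SD above 0.5 on at least 1 array. In all 6 genes were called at each of the 3 times, FABP4, PCGF5, LOC770026, UGGT1, GDAP2 and TNFRSF10B.

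**Figure D5:**
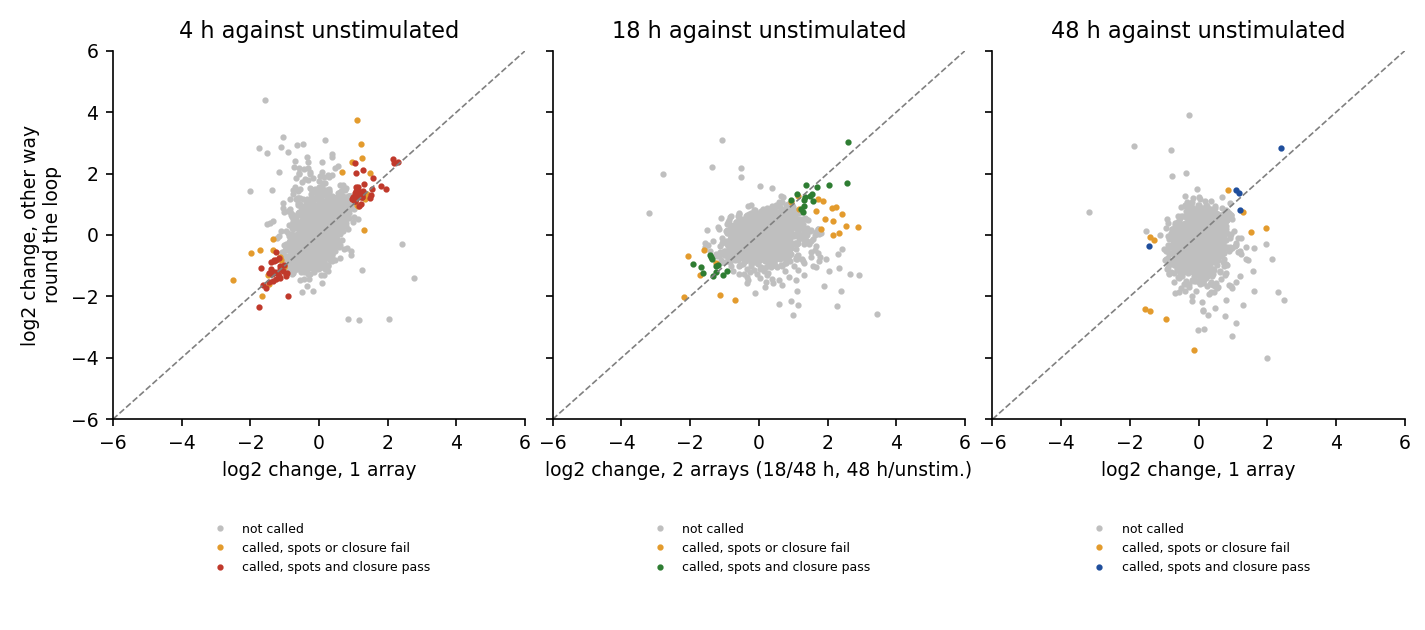
Log2 change at 4, 18 and 48 h along the route of fewer arrays, or for 18 h along the 18 h with 48 h and 48 h with unstimulated arrays (x axis), and along the other way round the loop (y axis) for each of 2251 genes, with the line of equality. Coloured points are called genes that pass the rule on spots and closure, 69 at 4 h, 27 at 18 h and 5 at 48 h, and orange points are called genes that fail it.

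From 18 to 48 h 43 genes were called (1.91%), 16 higher (0.711%) and 27 lower (1.2%), and the median gene stood at -0.11. Without the 18 h with 48 h array the count was 166, and without any other array it was 77. After LOC417536 and LOC395551 the lowest were MMP1 at -2.26, OSMR at -2.02, RNASE6 at -1.98 and IL18 at -1.89. The highest after HSPA2 were PLCXD1 at 1.72, BAG3 at 1.69, EPB41L3 at 1.55, P4HA1 at 1.49 and ARRDC3 at 1.47.

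Some of the genes named above had these values in the loops of the other parasites. No test of a difference was possible with 1 RNA sample per species and time. Genes named for a large value in the E. acervulina loop tend to be smaller in any other loop. The closures of the other loops are not given here, so these values do not show a difference between species. C1QC stood at -0.01 and 1.06 at 4 h with E. tenella and E. maxima, and RNASE6 at -0.25 and 1.35, beside 2.24 and 2.23 with E. acervulina. IL18 stood at 0.94 and -0.19 at 18 h, beside 1.83. CMBL stood at 1.15 and 1.21 at 4 h, beside -1.32, and at 1.37 and 0.29 at 18 h, beside 1.29. CCL20 stood at 1.68 and 0.04 at 48 h, beside 0.62. HMGCS1 stood at -0.26 and 1.04 at 48 h, beside 1.23. BAG3 stood at -0.36 and 2.26 at 4 h, beside 1.11. Whether the loops shared their unstimulated RNA was not stated.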

How the data were processed

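Each array was a two-channel cDNA array. The authors deposited a table with 1 log ratio for each of 14718 rows and array, here read as log2, with its background correction and normalization not given in the sources used here. Values were used without further centring. Between 12199 and 13443 rows had a value on the 4 arrays. A single gene symbol was given for 9066 rows by the platform annotation, several for 3 and none for 5649. Of the 2251 genes, 2225 matched a current chicken gene record in RefSeq. Rows of a symbol were averaged per array, and genes with all 4 arrays were kept. The number of spots differed between arrays for 1795 genes. Levels came from least squares on the loop, with 1 residual degree of freedom per gene, and limma 3.58.1 in R 4.3.3 moderated the array error over 5558 features. Intervals and SEs cover array error only, and the number of arrays limits the precision. Steps were tested on simulated data.

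The text names the 12 highest and lowest called genes at each time, the 6 highest and lowest between times, called members of 27 gene lists (between stimulated times some only by count), all chemokine and cytokine members, genes called at all times, and list members chosen after their values were seen. Members and lists were chosen with earlier results of these data known. Alternatives were other call rules, centring, scaling, row averaging and leaving out arrays.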

Additional observations from a re-analysis of the deposited data

How the results depend on the processing

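All values rest on 4 arrays and 1 RNA sample per time. In the order 4, 18 and 48 h against unstimulated, then 18 against 4, 48 against 18 and 48 against 4 h, the counts were 94, 50, 15, 29, 43 and 103. At 3-fold they were 15, 5, 3, 6, 11 and 19. Without the condition on the routes they were 98, 52, 22, 31, 49 and 109. With both routes at least 2-fold 69, 22, 5, 20, 27 and 63 genes were called, and with the added rule on spots and closure 69, 27, 5, 18, 31 and 72. A limma fit of the 4 arrays against array error with Benjamini-Hochberg adjustment called 0 in each, with 13.7%, 5.46%, 4.31%, 4.66%, 8.62% and 11.9% of genes at an unadjusted p under 0.05. Its error includes the dye effect of each gene and has 1 residual degree of freedom. A fit of all 12 arrays, on 2238 named genes, pooled array error over the 3 loops with 2 residual degrees of freedom. The p-values of both fits leave out the spread between cultures, so they are no test of a time against another. The limma fit of 12 arrays with a dye term called 90, 17, 0, 11, 39 and 92. In that fit 41.1%, 27.8%, 26.9%, 22.4%, 34% and 38.6% of the 2238 genes had an unadjusted p under 0.05. Leaving out an array gave 114 to 306, 87 to 168, 41 to 175, 36 to 205, 77 to 166 and 182 to 210. It gave spreads of 0.41 to 0.65 at 4 h and 0.29 to 0.43 at 48 h, and fractions kept at 48 h of 0.0039 to 0.25 for higher and 0.032 to 0.52 for lower genes. The cause of these shifts was not tested. Centring, scaling and the averaging of rows kept every count and spread within 1.5 times, but moved the fraction kept by lower genes from 0.14 to as low as 0.053 and that of higher genes from 0.13 to as high as 0.20. Of 2886 recomputed values of named genes 366 moved by more than their array error. For these genes 1 call changed sign, NDEL1 at 48 h, which stood at 0.20 with rows complete on all 4 arrays. Leaving out an array keeps 1 of the 2 routes. A call requires both routes to have the same sign, so those settings could not change the sign of a call. Of the list medians 615 of 648 recomputed values moved by less than the error of 1 array. No paired analysis was possible because each group has 1 array and the labels give no replicate numbers.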

Other observations

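The proteasome and actin lists were near the unstimulated level at 4 and 18 h and lower at 48 h. No member was called against unstimulated cells except the actin linker gene MSN, lower at 4 h. At 4, 18 and 48 h 4.18%, 2.22% and 0.666% of all genes were called. Of 14 proteasome genes 12 had a negative change at 48 h, with a median of -0.21 against -0.08 over all genes, and 13 had a negative difference from 18 to 48 h, with a median of -0.34 against -0.11. The 2 routes gave -0.20 and -0.29 at 48 h. Of 29 actin cytoskeleton genes 25 had a negative change at 48 h, with a median of -0.21 and routes of -0.21 and -0.24. Against 4 h 4 actin genes were called lower at 48 h, where 2.89% of all genes were, ACTB, ARPC1B, CAPZA1 and CORO1C. ACTB and CORO1C failed the rule on spots and closure. Of 27 oxidative phosphorylation genes 22, 20 and 25 had a negative change at 4, 18 and 48 h. Their medians were -0.27, -0.21 and -0.21, against 0.00, 0.04 and -0.08 over all genes. At 48 h this list median was still below that of all genes, while the ribosomal one was 0.01. A test of that difference was not made.

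Interferon response genes, 12 measured, had medians of -0.07, -0.01 and -0.14, and antigen presentation genes, 13 measured, had -0.25, -0.11 and -0.06. None was called in either list at any of the 3 times, where 4.18%, 2.22% and 0.666% of all genes were. Among 21 genes of Toll-like receptors and NF-kB signalling TBK1, a kinase of interferon induction, was called higher at 4 and 18 h. It stood at 1.28 and 1.01 with 1 spot on an array, and 2.31% and 1.38% of all genes were called higher then. TNIP3 was called lower at 4 and 48 h, where 1.87% and 0.311% of all genes were, at -2.24 and -1.69 on spots that disagreed. TLR2A stood at 0.02, -0.25 and -0.96. Of 13 complement and secreted defence genes 3 were called higher and 2 lower at 4 h, where 2.31% and 1.87% of all genes were, the lower ones LYZ and AVD, which encodes avidin, at -1.31. Of 15 matrix genes MMP1, TFPI and TFPI2 were called higher at 18 h, where 1.38% of all genes were. MMP27 was called lower at 48 h, where 0.311% were. Of these matrix genes MMP1 was well measured. Of 14 apoptosis genes FAS and TNFRSF10B were called lower at 4 h, where 1.87% of all genes were. Of 15 cell cycle genes none was called against unstimulated cells at the 3 times, where 4.18%, 2.22% and 0.666% of all genes were. PCNA, the DNA polymerase clamp, stood at 0.64, 0.51 and -0.72, and was called lower at 48 h than at 18 h, at -1.23, and than at 4 h, at -1.36, where 1.2% and 2.89% of all genes were. CCND3, a cyclin gene, was called lower at 48 h than at 4 h, at -1.21.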
